A study of Mus musculus with 12 samples.

Results

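Rbfox1, Rbfox2, Rbfox3, Nova1, Nova2, Elavl1, Elavl2, Elavl3, Elavl4 and Qk encode RNA-binding proteins that steer alternative splicing in the nervous system. These 10 genes were taken by symbol from a table of 55573 genes, and all 10 were among the 17126 genes with enough counts to be tested. RNA was measured in primary hippocampal neurons of C57BL/6 mice, isolated from pooled newborn pups of both sexes, treated with Ara-C against glial growth and kept in culture for 14 days. Endogenous YTHDF1, YTHDF2 or YTHDF3, 3 cytoplasmic readers of the RNA mark N6-methyladenosine (m6A), was immunoprecipitated with the antibody EPR22349-16, EPR23544-19 or EPR21912-3, and the RNA that came down with it was sequenced (RIP-seq). The 12 libraries formed 4 groups of 3 replicates, named Input (RNA from a fraction of the lysate), YTHDF1 RIP, YTHDF2 RIP and YTHDF3 RIP. Per the methods, the pooled lysate of the wells of each replicate was divided among the 3 RIPs, with 1 input for all of them. No treatment or genotype other than the wild-type strain distinguishes the groups. The 12 libraries hold no pull-down with a control antibody, so each RIP is described relative to input. The question asked of each gene was whether its mRNA was over- or under-represented in the RNA recovered with each YTHDF protein.

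Rbfox proteins bind the hexamer UGCAUG in introns and 3′UTRs and, depending on the position of the site, promote or repress the use of the neighbouring exon. Rbfox3 is the antigen known as NeuN, a widely used marker of mature neurons. Nova1 and Nova2 bind clusters of YCAY and regulate exons of synaptic proteins. Elavl proteins, also called Hu proteins, bind AU-rich and U-rich stretches, many of them in 3′UTRs, and affect mRNA stability as well as splicing. Elavl1 (HuR) is made in most cell types, whereas Elavl2 (HuB), Elavl3 (HuC) and Elavl4 (HuD) are the neuronal members. Qk (Quaking) binds ACUAAC and is best known from oligodendrocytes and astrocytes.

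The members lie on 9 chromosomes. In the GRCm38 coordinates of the count table, the gene with the longest span was Rbfox1 (ENSMUSG00000008658, chr16:5885355-7411526), which covered 1526.2 kb for 4400 exonic bases. Rbfox2 (ENSMUSG00000033565, chr15:77078990-77307004) and Rbfox3 (ENSMUSG00000025576, chr11:118489762-118911597) had 8140 and 5818 exonic bases. Elavl1 (ENSMUSG00000040028, chr8:4285382-4325413) and Qk (ENSMUSG00000062078, chr17:10202601-10319854) had the longest exonic lengths, with 10363 and 14242 bases. Gm49318, annotated as protein-coding, shared 256 exonic bases on the same strand with Elavl3, and Gm33869 shared 310 with Nova1. A read in the shared bases was counted for both genes, and these stretches made up 3.72% of the exonic length of Elavl3 and 3.54% of that of Nova1.

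To show what the mRNAs look like, the longest complete coding transcript of each gene was read from GENCODE M21, which is on the same build but is another annotation release. m6A is deposited mostly on the adenosine of GGACT and related pentamers, so the copy of GGACT nearest to the stop codon is printed with 10 bases on each side for the 4 members with the largest changes in the YTHDF1 RIP and for Rbfox3 and Qk, which passed the threshold in no RIP when all groups were fitted together. The nearest copy was not always close to the stop codon. Counted in bases of the mRNA from the end of that codon, it lay at 75 in Rbfox2, 331 in Elavl1 and 496 in Rbfox3. In Nova1, Elavl2 and Qk it lay upstream, at -1455, -1355 and -707. GGACT is in capitals, and each line is written 5′ to 3′ on the sense strand.
Rbfox2, 3′UTR, chr15:77084073-77084097, minus strand: tactagtagaGGACTctatagcaag
Nova1, coding sequence, chr12:46818669-46818693, minus strand: tggacccgccGGACTcgcggaaaag
Elavl1, 3′UTR, chr8:4289255-4289279, minus strand: gacggtggtgGGACTgaagcatgct
Elavl2, 5′UTR, chr4:91376091-91376115, minus strand: ttttagcattGGACTttggggtcga
Rbfox3, 3′UTR, chr11:118492084-118492108, minus strand: ccagtgggagGGACTtccacccacc
Qk, coding sequence, chr17:10274016-10274040, minus strand: tggacctagaGGACTtacagctaaa

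GGACT was found in the mRNA of 9 of 10 members, against 92.8% of 13399 tested protein-coding genes with a complete transcript. Rbfox2 held 10 copies, 8 of them in its 3′UTR, Nova1 and Qk held 6 each, and Elavl4 held 5. Rbfox1 held 0 copies in a transcript of 3061 bases. Per kilobase, the density was below the median of all these genes (1.04) in 8 of 10 members, among them Nova1 (0.839), Elavl2 (0.716), Elavl1 (0.697) and Nova2 (0.478). Rbfox2 (1.45) and Elavl4 (1.21) lay above it. The 3′UTR of each of the 10 members was longer than the median of 1214 bases, from 1439 bases in Rbfox3 to 7014 in Qk. Motifs known from the Elavl, Rbfox and Qk proteins were also counted, while YCAY of the Nova proteins was not. ATTTA, the core of AU-rich elements, was in the 3′UTR of 9 of 10 members (70.3% of all genes), with 29 copies in Nova1, 17 in Elavl1, 15 in Elavl2 and 15 in Qk. TGCATG, the Rbfox hexamer, was in the 3′UTR of 7 of 10 members (36.9% of all genes), with 6 copies in Nova1 and 4 in Qk. Of the Rbfox genes, Rbfox3 held 2 copies there, and Rbfox1 and Rbfox2 held 0. ACTAAC, the Qk hexamer, was in the 3′UTR of 4 of 10 members (19.9% of all genes) and occurred 2 times in that of Qk. These shares of members and of all genes were not adjusted for length, although all 10 members had 3′UTRs longer than the median. Only the sense strand was searched, GGACT followed by AAC would also hold ACTAAC, and m6A itself was not measured in these libraries.

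Total counts lay between 6020072 and 38909592 per library. No 2 libraries held identical counts, and Spearman correlations across genes were 0.936 to 0.983 between replicates and 0.798 to 0.907 between a RIP and an input library. The lowest count of any member in any library was 58 (Elavl4). The defining neuronal markers were present in every library, and microglial and endothelial markers summed to at most 6.53 and 4.84 CPM (counts scaled to a common library size). Astrocyte markers were not near 0, with sums from 1040 to 3554 CPM, and oligodendrocyte-lineage markers summed to between 55.9 and 1472 CPM. In Input replicate 1 and YTHDF3 RIP replicate 1 these last sums were 55.9 and 56.7 CPM, and in YTHDF1 RIP replicate 1 and YTHDF2 RIP replicate 1 they were 1472 and 549 CPM, so the libraries numbered 1 did not look alike. Because the cultures are mixtures, fewer cells of a type and less RNA per cell cannot be told apart in these values. In a RIP library, the recovery of the marker mRNAs with the YTHDF protein also enters the sums, and its part was not tested.

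In Input, the neuronal Hu gene Elavl3 had the highest level per exonic length and Nova1 the lowest. Elavl3 was at 36.0 ± 3.91 RPKM, the CPM divided by the exonic length in kilobases (SD, n = 3), Rbfox2 at 29.5 ± 3.39 and Rbfox1 at 28.4 ± 6.52, and the libraries of neighbours among these 3 overlapped. Nova2 (19.3 ± 1.51), Qk (18.1 ± 10.2) and Rbfox3 (15.8 ± 4.21) came next and overlapped among themselves. Every Nova2 and Rbfox3 library was below every Rbfox1 library, whereas 2 Qk libraries were above the lowest Rbfox1 library. Elavl1 (7.17 ± 0.390), Elavl2 (5.69 ± 1.03) and Elavl4 (4.82 ± 0.744) had lower means, and 1 Qk library (6.29 RPKM) lay among them. Elavl1 was above Elavl2 in every library, and Elavl2 overlapped Elavl4. Nova1 was at 1.94 ± 0.741 RPKM, below every other member in every library. Without division by length, Qk ranked 1, Elavl3 2, Rbfox2 3 and Rbfox1 5.

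The order was different in the YTHDF1 RIP. Rbfox2 (132 ± 53.2 RPKM) and Elavl1 (132 ± 106 RPKM) stood highest and overlapped each other, and the lowest Elavl1 library lay above every Elavl3 library (47.2 ± 8.14 RPKM). In the YTHDF2 RIP, Rbfox2 (50.5 ± 11.3 RPKM) stood above every other member without overlap, and in the YTHDF3 RIP Elavl3 (44.3 ± 3.44 RPKM) did.

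**Figure D1:**
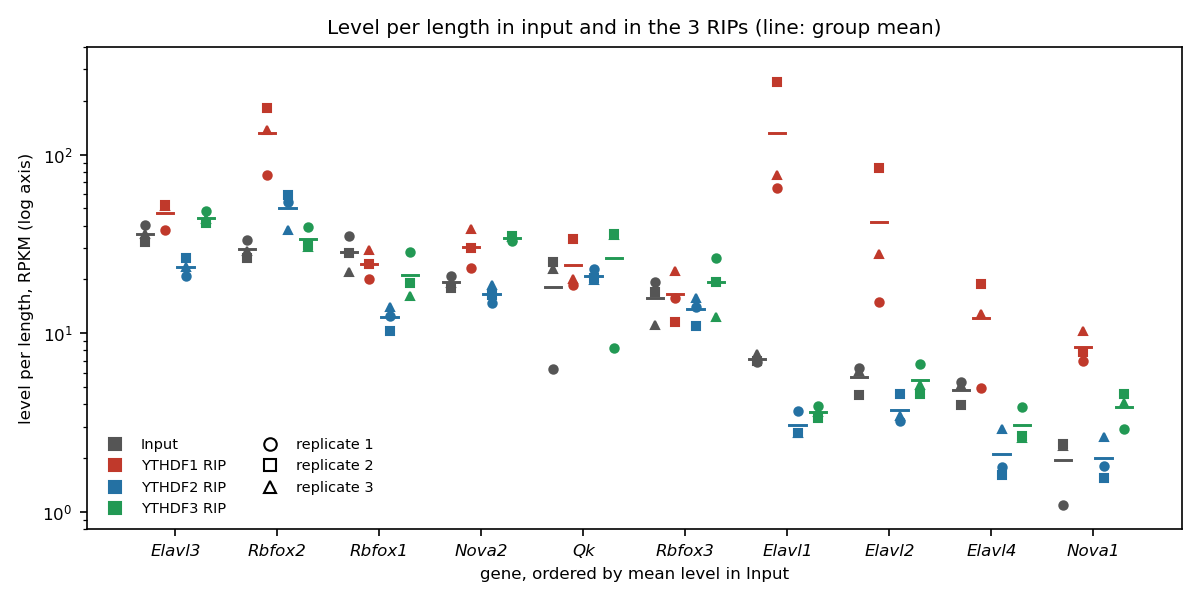
Level per exonic length of each gene in RPKM on a log axis, with genes ordered by their mean in Input, a point per library and a line at the mean of the 3 libraries of a group. Elavl1 moves from 7.17 RPKM in Input to 132 in the YTHDF1 RIP, while Elavl3 lies between 23.5 and 47.2 in all 4 groups.

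Against input, 6 of 10 members were higher in the YTHDF1 RIP and 0 were lower. Of all genes tested, 27.2% were higher and 25.8% lower by the same rule, a change of at least 25% in the ratio (0.32 on the log2 scale) with p at or below 0.05 in edgeR's quasi-likelihood test after Benjamini-Hochberg adjustment. The members' median log2 fold change was 1.003, and that of all genes was 0.02. In 5 of 10 members every RIP library lay above every input library and in 0 of 10 below, beside 27.9% and 28.0% of all genes. With 3 libraries against 3, an exact two-sided permutation test of a single gene cannot go below p = 0.1, so each call rests on the spread that edgeR estimates over all groups.

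The Elavl family held the widest range of changes. Elavl1, the ubiquitous member, was at 71.2, 72.8 and 78.8 CPM in Input and at 669.8, 2632 and 794 CPM in the YTHDF1 RIP. The groups did not overlap, and replicate 2 of the RIP stood far above the other 2. The log2 fold change was 4.20 ± 0.47 (SE), or 18.4-fold (edgeR adjusted p = 3.89e-05), and placed Elavl1 at rank 101 of 17126 genes. Without YTHDF1 RIP replicate 2 it was 9.38-fold (edgeR adjusted p = 1.18e-06), and with the trend of counts with gene length removed from each library it was 10.5-fold (edgeR adjusted p = 0.000188).

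Elavl2 followed with a 7.41-fold higher level. Its CPM were 53.1, 37.5 and 51.2 in Input and 124, 697 and 230 in the YTHDF1 RIP. Again all RIP libraries lay above all input libraries and replicate 2 was the highest. The log2 fold change was 2.89 ± 0.51 (edgeR adjusted p = 0.000695), and without YTHDF1 RIP replicate 2 the fold was 3.55 (edgeR adjusted p = 0.000278). With the length trend removed it was 4.87 (edgeR adjusted p = 0.00363).

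The other two neuronal Hu genes differed from this. Elavl4 was at 28.9, 21.4 and 27.6 CPM in Input and at 26.6, 101 and 69.3 CPM in the YTHDF1 RIP, so that replicate 1 of the RIP lay within the input range. It passed the threshold (log2 fold change 1.34 ± 0.40, edgeR adjusted p = 0.0153), but not without Input replicate 2 (1.22, adjusted p = 0.0586) or YTHDF1 RIP replicate 2 (0.81, adjusted p = 0.0818). The Elavl4 call was also lost when only these 2 groups were fitted (edgeR adjusted p = 0.0512), or with replicate number as a block added to that fit (1.06, adjusted p = 0.131) or to the removal of the length trend (1.05, adjusted p = 0.0757). Elavl3 was at 276, 222 and 246 CPM in Input and 260.4, 361 and 353 CPM in the RIP, overlapped, and had a log2 fold change of 0.39 ± 0.18 (edgeR adjusted p = 0.0902). Of the alternatives, it passed only without YTHDF1 RIP replicate 1 (0.53, adjusted p = 0.0250).

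The ratio of 2 genes within a library does not depend on how libraries are scaled. The CPM of Elavl1 over that of Elavl3, which is not corrected for length and is used here only to compare libraries, was 0.258, 0.327 and 0.321 in Input. For YTHDF1 it was 2.57, 7.28 and 2.25, for YTHDF2 0.264, 0.158 and 0.177, and for YTHDF3 0.123, 0.122 and 0.125. The YTHDF1 RIP thus lay above input in every library, and the YTHDF3 RIP below it in every library.

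In the Rbfox family, Rbfox2 was higher in the YTHDF1 RIP and its relatives did not pass the threshold. Rbfox2, which is also made outside the nervous system, was at 269, 215 and 235 CPM in Input and at 625, 1488 and 1121 CPM in the RIP. All RIP libraries lay above all inputs, with a log2 fold change of 2.17 ± 0.31, or 4.50-fold (edgeR adjusted p = 0.000153), and 2.95-fold with the length trend removed (adjusted p = 0.00123). Rbfox1 was at 154, 124 and 96.6 CPM in Input and 88.7, 107 and 128 CPM in the RIP (log2 fold change -0.21 ± 0.25, edgeR adjusted p = 0.503), and it was lower by library size alone (-0.63, adjusted p = 0.0219). Rbfox3 was at 112, 99.2 and 64.8 CPM in Input and 92.0, 67.3 and 129 CPM in the RIP (log2 fold change 0.06 ± 0.32, edgeR adjusted p = 0.884). The ranges overlapped in part, with 1 Rbfox1 library below all inputs and 1 Rbfox3 library above them. Within a library, the CPM of Rbfox2 was 1.73 to 2.44 times that of Rbfox1 in Input and 7.05 to 13.9 times in the YTHDF1 RIP.

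Both Nova genes were higher in the YTHDF1 RIP. Nova1 was at 9.51, 21.01 and 20.5 CPM in Input and at 61.3, 69.0 and 90.1 CPM in the RIP, with no overlap and a log2 fold change of 2.12 ± 0.33, or 4.33-fold (edgeR adjusted p = 0.000271), and 2.69-fold with the length trend removed (adjusted p = 0.00282). Nova2 was at 175, 149.9 and 159 CPM in Input and at 193, 251 and 322.5 CPM in the RIP. Its libraries did not overlap either, and its log2 fold change was 0.66 ± 0.20 (edgeR adjusted p = 0.0138). The Nova2 call was lost without Input replicate 2 (adjusted p = 0.0533), Input replicate 3 (0.0742) or YTHDF1 RIP replicate 3 (0.0586). It was also lost when the length trend was removed (log2 fold change 0.02, edgeR adjusted p = 0.945), when libraries were scaled by size alone (0.24, adjusted p = 0.256) or by TMM over protein-coding genes (0.41, adjusted p = 0.0887), without a filter (adjusted p = 0.131), and when 2 groups were fitted alone (adjusted p = 0.115) or with the replicate block (adjusted p = 0.267).

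Qk did not pass the threshold in the YTHDF1 RIP. It was at 89.6, 356 and 326 CPM in Input and at 265, 479 and 287 CPM in the RIP, with overlap and a log2 fold change of 0.42 ± 0.55 (edgeR adjusted p = 0.547).

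**Figure D2:**
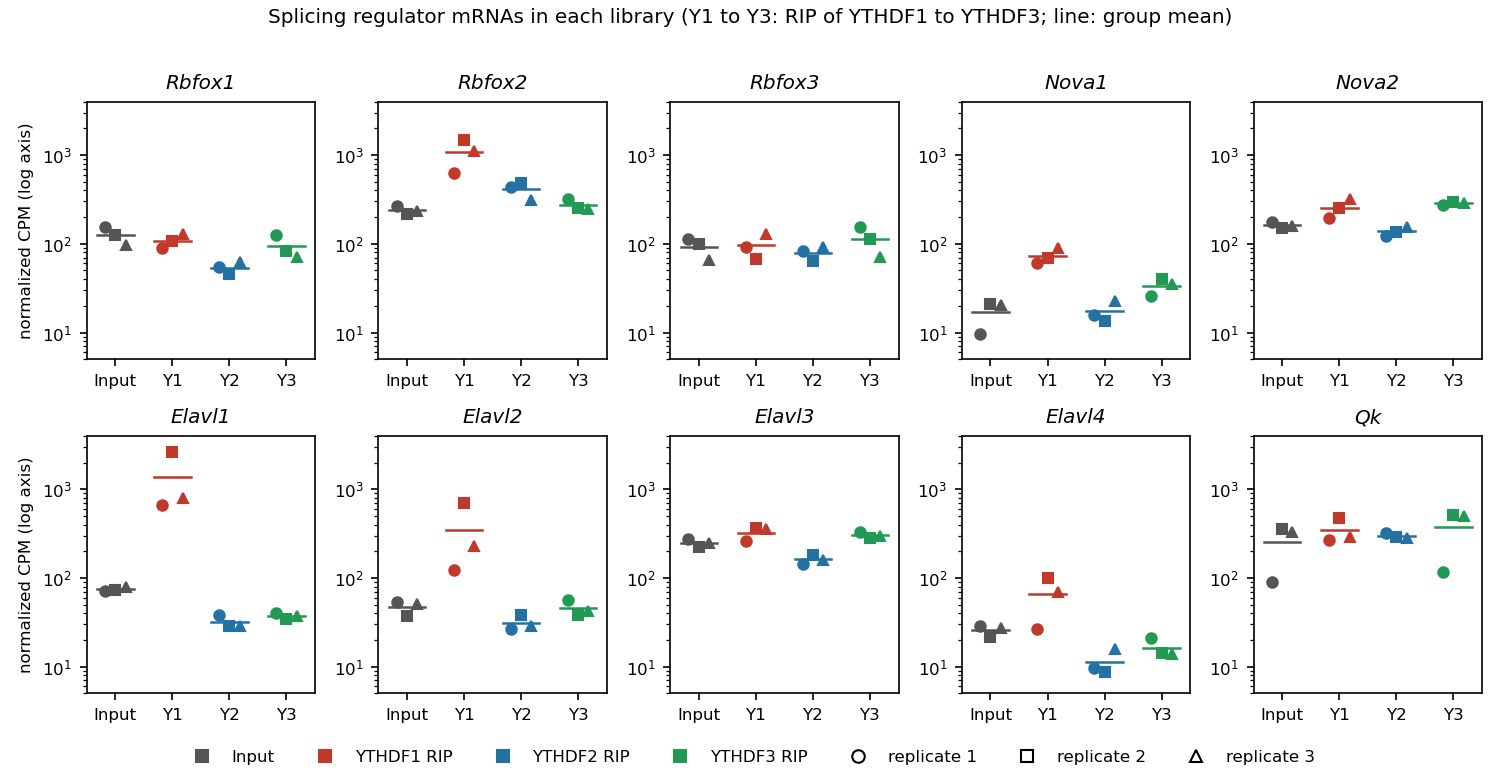
Normalized CPM of the 10 genes in each of the 12 libraries on a log axis, with a point per library, its shape giving the replicate, and a line at the group mean. In the YTHDF1 RIP, Elavl1 (669.8 to 2632 CPM), Elavl2 (124 to 697 CPM), Rbfox2 (625 to 1488 CPM) and Nova1 (61.3 to 90.1 CPM) lie above all libraries of the other 3 groups.

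In the YTHDF2 RIP, 4 of 10 members were lower than in Input and 0 were higher, beside 19.0% lower and 15.7% higher of all genes tested. The members' median log2 fold change was -0.42, and that of all genes 0.02. Every RIP library lay below every input library in 4 of 10 members (27.5% of all genes) and above in 1 of 10 (25.3%). Markers of cell types moved with this RIP. The 8 neuronal markers, Rbfox3 among them, summed to 2040 to 3048 CPM in the YTHDF2 RIP and 3377 to 4888 in Input, without overlap. The oligodendrocyte-lineage markers (431 to 592 CPM, against 55.9 to 413 in Input) and the 4 fibroblast markers (108 to 195 CPM, against 5.56 to 95.3) were higher without overlap, and the astrocyte markers (1826 to 2510 CPM, against 1040 to 3554) overlapped. In the YTHDF1 RIP, the sums of the neuronal (4297 to 7526 CPM), oligodendrocyte-lineage (383 to 1472 CPM) and fibroblast markers (67.55 to 103.2 CPM) reached above Input but overlapped with it. The astrocyte markers there (1269 to 2964 CPM) lay within the input range. Among the neuronal markers, mean Map2 rose from 1510 CPM in Input to 4228 in the YTHDF1 RIP. Mean Stmn2 (533 to 190 CPM), Slc17a7 (351 to 174), Snap25 (296 to 194) and Tubb3 (365 to 347) fell. Mean Rbfox3 (92.1 to 96.2 CPM), Syt1 (478 to 496.5) and Syn1 (358.5 to 382) were slightly higher. The part of the markers' cell types in the values of the members was not tested for either RIP. Rbfox1 was at 154, 124 and 96.6 CPM in Input and at 54.9, 45.2 and 61.8 CPM in the RIP, a non-overlapping, 2.31-fold lower level (log2 fold change -1.21 ± 0.26, edgeR adjusted p = 0.00411). This call held without any of the 12 libraries in turn. Within a library, the CPM of Rbfox2 over that of Rbfox1 was 8.03, 10.7 and 4.97 in the YTHDF2 RIP, above the 1.73 to 2.44 of Input.

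Rbfox2 itself was at 441, 484 and 307 CPM in the YTHDF2 RIP, above all inputs. Its log2 fold change was 0.78 ± 0.30 and missed the threshold (edgeR adjusted p = 0.0605), but passed with DESeq2 (0.77, adjusted p = 0.0287), by library size alone, with a minimum mean of 50 and with 2 groups alone (edgeR adjusted p = 0.0220 to 0.0452). It also passed without YTHDF1 RIP replicate 1 (edgeR adjusted p = 0.0176), YTHDF1 RIP replicate 2 (0.0306) or YTHDF2 RIP replicate 3 (0.0469). Rbfox3 was at 82.0, 63.5 and 91.4 CPM, within the input range of 64.8 to 112 except for 1 library just below it (log2 fold change -0.22 ± 0.32, edgeR adjusted p = 0.622).

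Of the Elavl family, 3 of 4 members were lower in the YTHDF2 RIP. Elavl1 was at 38.0, 28.5 and 28.5 CPM, against 71.2 to 78.8 in Input (log2 fold change -1.23 ± 0.43, edgeR adjusted p = 0.0427). Elavl3 was at 144, 180.5 and 161 CPM, against 222 to 276 in Input (-0.62 ± 0.18, edgeR adjusted p = 0.0214). Elavl4 was at 9.57, 8.66 and 15.6 CPM, against 21.4 to 28.9 in Input (-1.19 ± 0.41, edgeR adjusted p = 0.0424). None of these 3 genes overlapped with input. Elavl2, at 26.7, 37.8 and 28.5 CPM, overlapped and did not pass (-0.61 ± 0.49, edgeR adjusted p = 0.356), except with 2 groups alone (adjusted p = 0.0473).

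The 3 Elavl calls lay close to the threshold. The Elavl1 call was lost without any input, YTHDF2 RIP or YTHDF3 RIP library in turn (adjusted p = 0.0535 to 0.118), and the Elavl4 call without any input library, YTHDF1 RIP replicate 3, YTHDF2 RIP replicate 1 or 2, or YTHDF3 RIP replicate 2 or 3 (adjusted p = 0.0506 to 0.129). The Elavl3 call was lost without Input replicate 1 (adjusted p = 0.0792), YTHDF2 RIP replicate 1 (0.0841) or YTHDF2 RIP replicate 3 (0.0581), without a filter (0.103), or with 2 groups alone and the replicate block (0.0808). With the block in the fit of all 12 libraries, 2 members rather than 4 were lower, as Elavl1 (edgeR adjusted p = 0.0526) and Elavl4 (adjusted p = 0.0584) missed the threshold.

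For the Nova genes and Qk, the YTHDF2 RIP gave no call. Nova1 was at 15.8, 13.4 and 22.9 CPM, with a log2 fold change of 0.04 ± 0.32 (edgeR adjusted p = 0.939). Nova2 was at 123, 137 and 156 CPM (-0.22 ± 0.20, edgeR adjusted p = 0.409), and was lower with the length trend removed (-0.55, adjusted p = 0.0288). Qk was at 324, 292 and 283 CPM (0.22 ± 0.55, edgeR adjusted p = 0.781). All of these overlapped with input.

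In the YTHDF3 RIP, both Nova genes were higher than in Input and 0 members were lower, beside 16.4% higher and 23.0% lower of all genes tested. The groups did not overlap in 3 of 10 members with higher RIP values (26.6% of all genes) and 2 of 10 with lower ones (29.1%). No member (0 of 10) was called higher in all 3 RIPs, beside 8.45% of all genes. Nova2 was at 273, 292 and 289 CPM, against 149.9 to 175 in Input, without overlap and with little spread among the RIP libraries. Its log2 fold change was 0.82 ± 0.20, or 1.77-fold (edgeR adjusted p = 0.00618), and the call held without any library in turn. Nova1 was at 25.5, 39.7 and 35.6 CPM, against 9.51 to 21.01 in Input (0.98 ± 0.32, edgeR adjusted p = 0.0276). The Nova1 call was lost without Input replicate 1 (adjusted p = 0.0809), YTHDF3 RIP replicate 2 (0.0852) or YTHDF3 RIP replicate 3 (0.0642). Both Nova calls were lost when the length trend was removed (Nova1 0.51, adjusted p = 0.219, and Nova2 0.38, adjusted p = 0.107).

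The other members did not pass in this fit. Elavl1 was at 40.6, 34.7 and 37.7 CPM, below all inputs (log2 fold change -0.98 ± 0.42, edgeR adjusted p = 0.0852). It passed without YTHDF1 RIP replicate 1 (adjusted p = 0.0436) or replicate 2 (0.000719), without a filter (-0.85, adjusted p = 0.0377) and after removal of the length trend (-1.52, adjusted p = 0.0206). Elavl2 was at 56.1, 38.0 and 42.7 CPM (-0.05 ± 0.48, edgeR adjusted p = 0.944). Elavl3 was at 331, 284 and 301 CPM, all above the inputs (0.30 ± 0.18, edgeR adjusted p = 0.214), and Elavl4 at 20.9, 14.3 and 14.0 CPM, all below them (-0.66 ± 0.40, edgeR adjusted p = 0.215). Of the Rbfox genes, Rbfox1 was at 126, 83.6 and 71.4 CPM (-0.42 ± 0.25, edgeR adjusted p = 0.214), Rbfox2 at 320.2, 253 and 246 CPM (0.19 ± 0.29, adjusted p = 0.644) and Rbfox3 at 154, 112 and 71.6 CPM (0.29 ± 0.32, adjusted p = 0.506), each overlapping with input.

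Same-numbered YTHDF3 RIP and input libraries deviated together, and when only these 2 groups were fitted, with replicate number as a blocking factor, more members were called. In that fit 4 of 10 members were higher and 3 of 10 lower than in Input, beside 36.3% higher and 32.2% lower of all genes tested, so these counts were near the background. Nova1 (log2 fold change 1.09, edgeR adjusted p = 5.54e-09), Nova2 (0.88, adjusted p = 8.05e-08), Elavl3 (0.36, adjusted p = 0.00203) and Qk (0.57, adjusted p = 2.63e-05) were higher. Elavl1 (-0.92, edgeR adjusted p = 5.12e-09), Elavl4 (-0.61, adjusted p = 2.94e-05) and Rbfox1 (-0.38, adjusted p = 0.000837) were lower. With the length trend removed and the block in the fit of all groups, Elavl3 (-0.056, edgeR adjusted p = 0.848) and Qk (-0.15, adjusted p = 0.839) turned in direction, and neither Nova gene passed (Nova1 0.55, adjusted p = 0.107, and Nova2 0.37, adjusted p = 0.115). Taken pair by pair, 6 of 10 members were above their same-numbered input in 3 of 3 pairs and 3 of 10 below it, beside 41.9% and 39.5% of all genes. Elavl1, for example, differed by -0.81, -1.06 and -1.06 on the log2 scale, and Qk by 0.40, 0.51 and 0.63. Elavl2 differed by 0.08, 0.02 and -0.26.

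**Figure D3:**
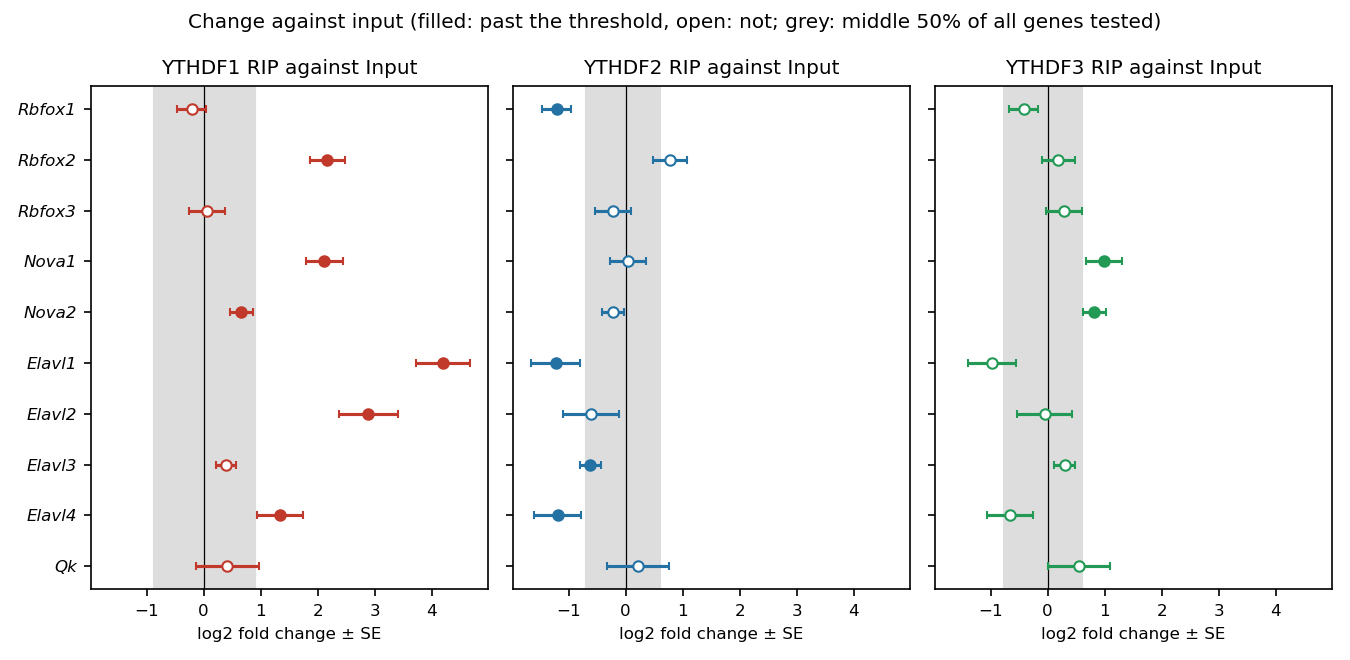
Log2 fold change of each gene against Input in the 3 RIPs, with bars of 1 SE, filled points past the threshold and a grey band for the middle 50% of all genes tested. In the YTHDF1 RIP the points reach from -0.21 (Rbfox1) to 4.20 (Elavl1), and in the YTHDF2 RIP Elavl1 is at -1.23.

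Qk varied between libraries, with its lowest values in 2 of them. It was at 89.6 CPM in Input replicate 1 and 118 CPM in YTHDF3 RIP replicate 1, and between 265 and 508 CPM in the other 10 libraries. In the same 2 libraries the 8 oligodendrocyte-lineage markers (Pdgfra, Cspg4, Olig1, Olig2, Sox10, Mbp, Mog and Mag, of which 6 passed the count filter) summed to 55.9 and 56.7 CPM, against 366 to 1472 CPM elsewhere. The 8 astrocyte markers summed to 1040 and 1216 CPM there and to 1269 to 3554 CPM elsewhere. No marker of these lists was at 0 in any group. Without Input replicate 1, the log2 fold change of Qk in the YTHDF2 RIP was -0.19 rather than 0.22. The part of these cells in the Qk values was not tested.

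**Figure D4:**
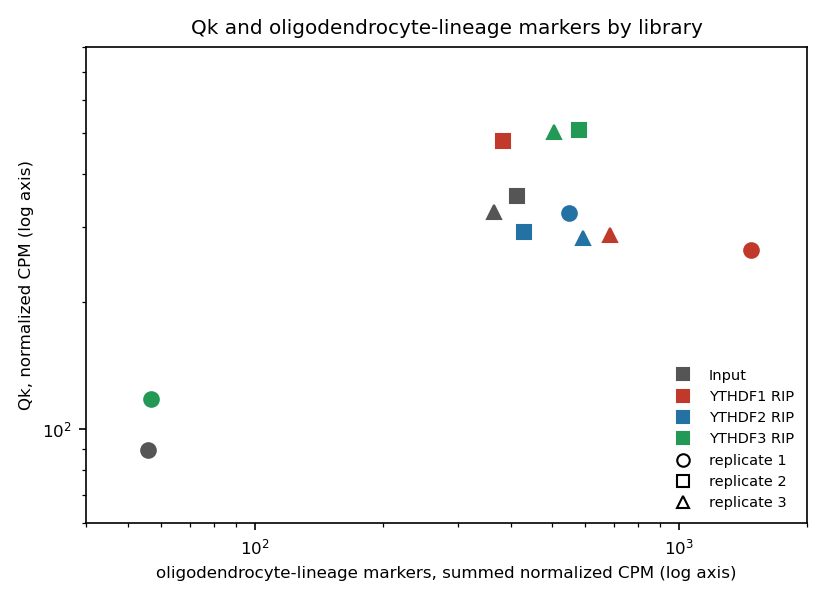
Normalized CPM of Qk against the summed normalized CPM of the oligodendrocyte-lineage markers in each of the 12 libraries, both on log axes, with colours for the group and shapes for the replicate. Input replicate 1 and YTHDF3 RIP replicate 1 lie at 55.9 and 56.7 summed CPM with Qk at 89.6 and 118 CPM, and the other 10 libraries lie at or above 366 and 265.

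The 3 RIPs were then compared with each other, with a fold change of at least 2 for a call. A single test of any difference among the RIPs passed for 8 of 10 members, beside 32.3% of all genes tested. Rbfox3 (edgeR adjusted p = 0.440) and Qk (adjusted p = 0.883) did not pass. Elavl1 had the smallest adjusted p of the members (1.16e-05).

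Against the YTHDF2 RIP, 6 of 10 members were higher in the YTHDF1 RIP and 0 lower, beside 11.4% higher and 6.10% lower of all genes tested. Elavl1 differed by 5.43 ± 0.50 on the log2 scale, or 43.1-fold (edgeR adjusted p = 3.64e-05), and ranked 13 among 17126 genes. Elavl2 (3.50 ± 0.53), Elavl4 (2.54 ± 0.43), Nova1 (2.08 ± 0.33) and Rbfox2 (1.39 ± 0.30) followed, with edgeR adjusted p between 0.000614 and 0.00506. Without YTHDF1 RIP replicate 2 the folds of Elavl1 and Elavl2 were 22.3 and 5.49. Elavl3 was 2.01-fold higher (1.01 ± 0.18, edgeR adjusted p = 0.00189), at the edge of the fold threshold, and it dropped below that threshold without Input replicate 3, YTHDF1 RIP replicate 2 or 3, YTHDF2 RIP replicate 1 or YTHDF3 RIP replicate 2 or 3 (0.87 to 0.997), and with 9 other alternatives (0.51 to 0.98). Rbfox2 fell below it by library size alone (0.86). Rbfox1 lay just under it (0.998 ± 0.255, edgeR adjusted p = 0.0132), and passed without YTHDF1 RIP replicate 1 or YTHDF2 RIP replicate 1 or 3 (1.01 to 1.12), without a filter (1.06), with the replicate block (1.01) and with the length trend removed (1.02). Nova2 was 1.85-fold higher (0.88 ± 0.20, edgeR adjusted p = 0.00625) and passed without YTHDF1 RIP replicate 1 (1.05). In 8 of 10 members every YTHDF1 RIP library lay above every YTHDF2 RIP library, beside 20.4% of all genes, and in 0 of 10 below, beside 16.2%.

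Against the YTHDF3 RIP, 5 of 10 members were higher in the YTHDF1 RIP and 0 lower, beside 10.8% higher and 3.63% lower of all genes tested. They were Elavl1 (5.18 ± 0.49 on the log2 scale, 36.2-fold), Elavl2 (2.94 ± 0.51), Elavl4 (2.003 ± 0.41), Rbfox2 (1.98 ± 0.30) and Nova1 (1.13 ± 0.31), with edgeR adjusted p from 7.3e-05 to 0.0242. With 2 groups alone and the replicate block, Elavl1 was the only member called (4.68, edgeR adjusted p = 0.0191), and Rbfox2 (1.71, adjusted p = 0.0813), Elavl2 (2.37, adjusted p = 0.0825), Elavl4 (1.65, adjusted p = 0.128) and Nova1 (0.94, adjusted p = 0.147) missed the threshold. By library size alone the differences were 4.398 (Elavl1), 2.15 (Elavl2), 1.23 (Elavl4) and 1.22 (Rbfox2), and Nova1 was at 0.37 (adjusted p = 0.355). Without YTHDF1 RIP replicate 2, the folds of Elavl1 and Elavl2 were 17.8 and 3.56. The Nova1 call was lost without Input replicate 3 (log2 fold change 0.98), YTHDF1 RIP replicate 2 (adjusted p = 0.0508) or 3 (0.0726), or any YTHDF3 RIP library (0.0542 to 0.0845), and under 8 of 12 other alternatives. The groups did not overlap in 5 of 10 members with higher YTHDF1 RIP values (20.9% of all genes) and 0 of 10 with lower ones (12.2%). Nova2, called against input in both of these RIPs, differed between them by -0.16 ± 0.20 on the log2 scale (edgeR adjusted p = 0.618), and Elavl3 by 0.09 ± 0.18 (adjusted p = 0.770).

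Between the YTHDF2 and YTHDF3 RIPs, Nova2 was the only member called, with a 2.06-fold lower level in the YTHDF2 RIP (log2 fold change -1.04 ± 0.20, edgeR adjusted p = 0.0128), beside 1.16% lower and 3.95% higher of all genes tested. The call was lost without YTHDF2 RIP replicate 1 (log2 fold change -0.96) or 2 (adjusted p = 0.0548) or YTHDF3 RIP replicate 2 (0.0577), or with the length trend removed (log2 fold change -0.92). Elavl3 was 1.89-fold lower (-0.92 ± 0.18, edgeR adjusted p = 0.0155), which missed the fold threshold. It passed without YTHDF2 RIP replicate 2 (-1.004), by library size alone (-1.17, adjusted p = 0.00259), without a filter (-1.15, adjusted p = 0.00560) and with 2 groups alone (-1.03, adjusted p = 0.00727). Nova1 (-0.95) missed the call and passed with DESeq2, by library size alone, without a filter and with 2 groups alone (-1.003 to -1.24), and Rbfox1 (-0.79) passed by library size alone and without a filter (-1.04 and -1.02). Elavl1 was not called (-0.25 ± 0.42, edgeR adjusted p = 0.770). In 5 of 10 members every YTHDF2 RIP library lay below every YTHDF3 RIP library, beside 14.0% of all genes, and in 0 of 10 above, beside 21.8%.

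Other splicing regulators were listed beside these genes for comparison. A list of 27 (the Ptbp, Mbnl, Celf, Khdrbs, Msi and Esrp families, Srrm3, Srrm4, Tia1, Tial1 and 4 Rbm genes) had 24 tested members, with Mbnl3, Esrp1 and Esrp2 too low. In the YTHDF1 RIP 9 of 24 were higher and 1 lower than in Input, beside 27.2% and 25.8% of all genes tested. The median log2 fold change of the 24 was 0.51. The highest were Msi2 (3.73 ± 0.48, edgeR adjusted p = 8.59e-05), a Musashi protein of neural progenitors, and Tial1 (3.42 ± 0.33, adjusted p = 1.48e-05), a stress granule protein. Of those past the threshold, the lowest were Khdrbs3 (-0.71 ± 0.23, edgeR adjusted p = 0.0208), the splicing factor SLM2 of neurexin exons, and Celf5 (0.54 ± 0.18, adjusted p = 0.0265).

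In the YTHDF2 RIP 2 of 24 were higher and 3 lower, beside 15.7% and 19.0% of all genes tested. The median of the 24 was -0.13. Tia1 (0.94 ± 0.28, edgeR adjusted p = 0.0207), a relative of Tial1, and Srrm3 (0.72 ± 0.23, adjusted p = 0.0323), which promotes neuronal microexons, were higher. The lowest were Mbnl1 (-1.13 ± 0.29, edgeR adjusted p = 0.0120), a muscleblind protein, and Celf4 (-0.90 ± 0.25, adjusted p = 0.0174). In the YTHDF3 RIP 3 of 24 were higher and 1 lower, beside 16.4% and 23.0% of all genes tested. The median of the 24 was -0.09. Tia1 (1.17 ± 0.28, edgeR adjusted p = 0.00583) and Srrm4 (0.92 ± 0.17, adjusted p = 0.00142), a microexon regulator, were highest. Khdrbs3 (-0.95 ± 0.23, edgeR adjusted p = 0.00645) and Celf5 (0.56 ± 0.18, adjusted p = 0.0296) were the lowest among those past the threshold.

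**Figure D5:**
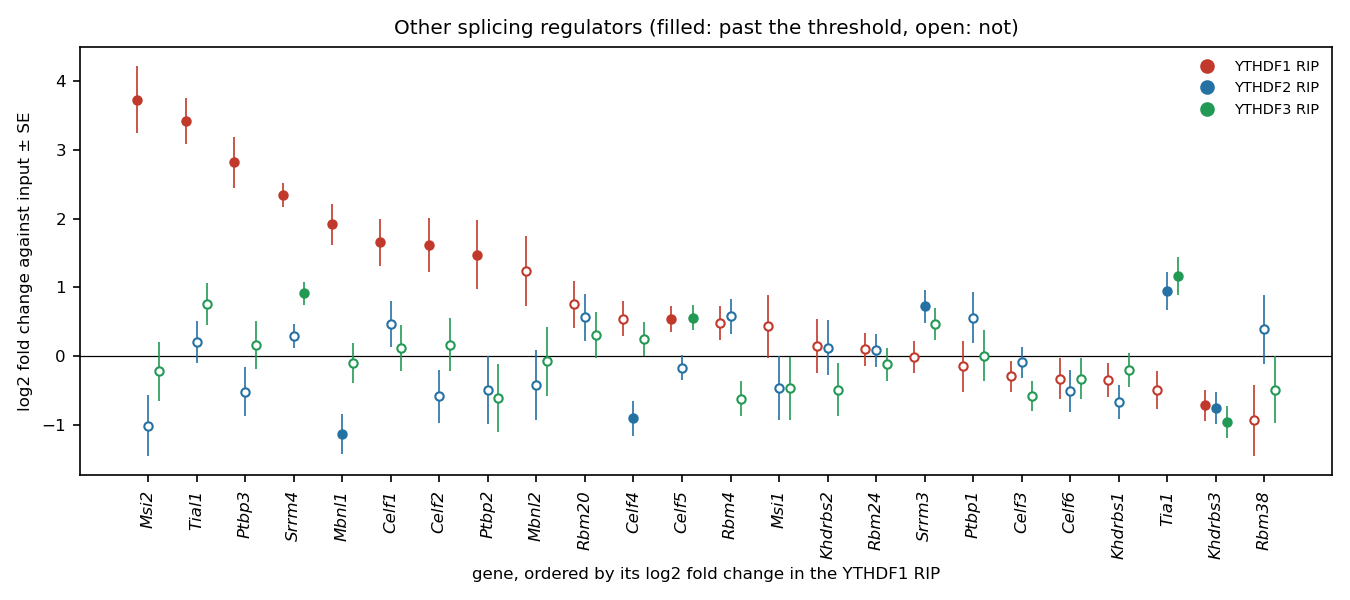
Log2 fold change against Input of the 24 tested splicing regulators in the 3 RIPs, with bars of 1 SE and filled points past the threshold, ordered by the YTHDF1 RIP. Msi2 (3.73) and Tial1 (3.42) stand highest in the YTHDF1 RIP, and Tia1 is highest in the YTHDF2 RIP (0.94) and the YTHDF3 RIP (1.17).

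Across the 12 libraries, the log2 CPM of Elavl1 and Elavl2 had a Pearson correlation of 0.956, that of Elavl2 and Elavl4 was 0.908, and that of Rbfox2 and Elavl2 was 0.855. Rbfox1 and Rbfox2 were at 0.05, and Nova1 and Nova2 at 0.716. These values describe 12 libraries that fall into 4 groups, differ in depth and, per the methods, share a lysate within a replicate. They carry no test. Among 9949 protein-coding genes with a mean of at least 100 normalized counts, the gene most like Elavl1 was Pabpc5 (0.986), like Elavl2 Fam117b (0.991), like Elavl3 Kif2a (0.971) and like Elavl4 Gnb1 (0.975). For the Rbfox genes these were Glrb (Rbfox1, 0.970), Syt14 (Rbfox2, 0.983) and Gramd1b (Rbfox3, 0.966). Snx18 was most like Nova1 (0.967), Celf5 most like Nova2 (0.963), and Tcf7l2 most like Qk (0.984).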

How the data were processed

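RIP-seq libraries were made by the authors from total RNA with a stranded kit that adds unique molecular identifiers. Per the submitters' processing notes and the methods, reads were handled with UMI-tools 1.1.1, Cutadapt 3.4 and STAR 2.7.7a. The deposited counts per gene are raw featureCounts 2.0.1 counts on GRCm38 with Ensembl 97 annotation, strand setting 2. As the file headers show, reads with several alignments or genes were counted for each, so related genes can share reads. The authors' DESeq2 tables hold mean counts, log2 fold changes and p-values of their own comparisons, and only their gene symbols were used.

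Genes with a mean of at least 10 normalized counts were tested with edgeR 4.0.16 in R 4.3.3 (quasi-likelihood, TMM over the tested genes), in 1 model of 4 groups and 12 libraries. The biological coefficient of variation was 0.323. P-values were adjusted over all 17126 genes by Benjamini-Hochberg. The SE is the log2 fold change divided by the square root of F. CPM are counts over the TMM-scaled library size, RPKM also divides by the exonic length of the count table, and log2 CPM used a prior count of 2. The fit was tested on simulated data in which few genes changed, in the YTHDF1 RIP alone, and no length trend was built in. The real data differ from this, so the simulation does not show how the fit behaves on them. The genes named beside the members were set by rule, as the 2 highest and 2 lowest of the regulator list past the threshold, the gene most like each member, and genes overlapping a member on its strand. The members, lists and tests were chosen with earlier results of these data known. The labels do not say that replicates came from separate cultures, so p-values measure the spread between these samples, which may be technical, although the methods call them biological replicates.

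Replicate numbers were checked for pairing, since the methods describe 1 lysate per replicate shared by the 3 RIPs and the input, while the labels do not say that a number marks a lysate. The deviations of same-numbered YTHDF3 RIP and Input libraries from their group means correlated at 0.829, 0.528 and 0.804, and these groups were treated as paired in a second fit. In every other comparison 1 or more of the 3 correlations were under 0.1. Each YTHDF1 RIP and YTHDF2 RIP library correlated more with an input of another number (up to 0.467 and 0.56) than with its own. Same-numbered YTHDF1 and YTHDF2 RIP libraries correlated at 0.059, 0.544 and 0.348. Whether a number marks the same lysate in all groups was not tested, so a block by number may join unlike libraries. Alternatives were DESeq2 1.42.0, other scalings and filters, the replicate block, 2 groups alone, removal of the length trend (loess span 0.3) and leaving out each library. A gene of the oligodendrocyte-lineage marker list is not reported here and was left out of its sums.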

Additional observations from a re-analysis of the deposited data

Results flagged for a closer look

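The test of the difference between 2 RIPs passed in 12 cases, on the log2 scale. YTHDF1 RIP exceeded YTHDF2 RIP for Elavl1 (5.43), Elavl2 (3.50), Elavl4 (2.54), Nova1 (2.08), Rbfox2 (1.39) and Elavl3 (1.01). These were 6 of 10 members, beside 11.4% of all genes tested. YTHDF1 RIP exceeded YTHDF3 RIP for Elavl1 (5.18), Elavl2 (2.94), Elavl4 (2.003), Rbfox2 (1.98) and Nova1 (1.13). That made 5 of 10 members, beside 10.8% of all genes tested. For Nova2, YTHDF2 RIP minus YTHDF3 RIP was -1.04, and 1 of 10 members was called lower there, beside 1.16% of all genes tested. Of 24 alternatives each, the call was lost under 15 for Elavl3, 14 for Nova1 against YTHDF3 RIP and 5 for Nova2. Rbfox2 in both comparisons, and Elavl2 and Elavl4 against YTHDF3 RIP, lost it under 1. The comparisons share libraries and are not independent of each other.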

How the results depend on the processing

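Of 690 values of the members against input under alternatives, 582 kept sign and side of the threshold, 46 lost a call, 25 gained one and 37 changed sign. Between RIPs these were 638, 38, 21 and 23 of 720. The calls of Elavl1, Elavl2, Rbfox2 and Nova1 in the YTHDF1 RIP and of Rbfox1 in the YTHDF2 RIP held under all 23 alternatives each. Library size alone moved the all-gene median log2 fold change by -0.40 (YTHDF1), 0.07 (YTHDF2) and 0.33 (YTHDF3), and TMM over protein-coding genes moved it by -0.24, -0.11 and -0.04. With the replicate block in all 12 libraries, 2 members rather than 4 were lower in the YTHDF2 RIP. With 2 groups alone and the block, 4 members were higher and 3 lower for YTHDF3, and 1 rather than 5 was higher for YTHDF1 than for YTHDF3 (Elavl1). In that fit all genes called higher were 2393 (YTHDF1) and 6212 (YTHDF3) against input, and those called between RIPs were 317 higher and 102 lower (YTHDF1 against YTHDF3) and 294 and 99 (YTHDF2 against YTHDF3). The methods describe a lysate shared within a replicate, the labels do not tie the numbers to lysates, and the same-numbered libraries deviated together in every pair only for YTHDF3 against Input, so for the other comparisons both fits are given. Against input, 1 member was lower in the YTHDF1 RIP by library size alone, 1 was higher in the YTHDF2 RIP with DESeq2, library size alone, a minimum mean of 50 or 2 groups alone, 1 was lower in the YTHDF3 RIP without a filter, and 2 were lower there with 2 groups alone. With the length trend removed, with or without the block, 0 members were higher and 1 lower in the YTHDF3 RIP (Elavl1, -1.52), and 0 were lower in the YTHDF2 than in the YTHDF3 RIP. That last count, 1 in the report, was 2 with DESeq2 or the lower fold threshold, 3 with 2 groups alone, and 4 by library size alone or without a filter. All genes called higher against input were 3087 (YTHDF1) and 4822 (YTHDF3) by library size alone. Between RIPs, all genes called in the YTHDF1 RIP against the YTHDF2 RIP were 1068 higher and 2796 lower by library size alone, and 1713 lower at the lower fold threshold. Against the YTHDF3 RIP they were 767 higher and 3440 lower by library size alone, 972 lower with TMM over protein-coding genes, 1174 lower without a filter, 1094 lower at the lower fold threshold and 893 higher with 2 groups alone. For the YTHDF2 against the YTHDF3 RIP, those lower were 349 with DESeq2, 718 by library size alone, 430 with 2 groups alone and 457 at the lower fold threshold, those without a filter 1043 higher and 769 lower, and those with the length trend removed and the block 429 higher. Without 1 library in turn, the members higher numbered 4 to 7 (YTHDF1), 0 to 1 (YTHDF2) and 1 to 2 (YTHDF3), those lower 1 to 4 (YTHDF2) and 0 to 1 (YTHDF3), and those lower in the YTHDF2 than in the YTHDF3 RIP 0 to 1.

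Changes of sign concerned members without a call in the fit of all groups. Of these, Elavl3 and Qk were called in the paired YTHDF3 RIP fit. Elavl3 by library size alone was lower in the YTHDF1 than in the YTHDF3 RIP (-0.65, edgeR adjusted p = 0.00855, fold under 2). By library size alone against Input they were Rbfox3 (-0.33), Elavl3 (-0.03) and Qk (-0.012) for YTHDF1 and Elavl2 (0.26) for YTHDF3, and between RIPs Rbfox3 (-0.18) and Qk (-0.30) for YTHDF1 against YTHDF2 and Rbfox1 (-0.52) for YTHDF1 against YTHDF3. Rbfox3 in the YTHDF1 RIP was -0.19 with TMM over protein-coding genes, -0.049 with a minimum mean of 50, -0.047 with 2 groups alone, -0.065 with 2 groups and the block, -0.26 with the length trend removed and -0.25 with the block added. Elavl3 for YTHDF1 against YTHDF3 was -0.12 with TMM over protein-coding genes, 2 groups alone or 2 groups with the block, -0.080 without a filter, -0.035 with a minimum mean of 50, and -0.018 and -0.024 with the length trend removed, without and with the block. Nova1 in the YTHDF2 RIP was -0.061 with TMM over protein-coding genes, -0.058 without a filter, and -0.31 and -0.27 with the length trend removed, without and with the block. Elavl2 in the YTHDF3 RIP was 0.074 without a filter and 0.004 with 2 groups and the block. With the length trend removed, without and with the block, Elavl3 was -0.074 and -0.080 for YTHDF1 and -0.056 both times for YTHDF3, Rbfox2 was -0.25 both times for YTHDF3, and Qk was -0.75 and -0.57 (YTHDF1), -0.14 and -0.15 (YTHDF3) and -0.49 and -0.58 (YTHDF1 against YTHDF2). Qk was also -0.26 in the YTHDF2 RIP without the block, 0.16 for YTHDF2 against YTHDF3 with it, and 0.036 for YTHDF1 against YTHDF3 with the block alone. Without 1 library in turn, ranges against Input were -0.24 to 0.23 (Rbfox3, YTHDF1), -0.25 to 0.22 (Nova1, YTHDF2), -0.19 to 0.53 (Qk, YTHDF2), -0.005 to 0.54 (Rbfox3, YTHDF3) and -0.23 to 0.09 (Elavl2, YTHDF3). For YTHDF1 against YTHDF2 the range of Qk was -0.17 to 0.36, and against YTHDF3 ranges were -0.50 to 0.068 (Rbfox3), -0.36 to 0.01 (Nova2), -0.12 to 0.23 (Elavl3) and -0.58 to 0.12 (Qk). The cause of these changes was not tested. The SE of Qk against input was 0.55 on the log2 scale, so its missing call does not show that it did not differ.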
